A study of Mus musculus with 4 samples.

Results

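The genes described here are 32 components of the piRNA pathway and of germ granules, taken by their symbols from a table of 55357 genes, and each of the 32 symbols matched 1 row. They were followed in single-nucleus RNA of mouse testis at 8 weeks of age, in 2 libraries from WT mice and 2 from Dhx37-/- mice. *Dhx37* encodes a nucleolar RNA helicase of the DEAH-box family. In the Dhx37-/- mice, which were C57BL/6 based, both alleles of *Dhx37* were floxed and Cre was driven by the AMH promoter, which is active in Sertoli cells, so the deletion was directed at the cells that nurse the germ cells and not at the germ cells in which most of these genes act. WT littermates were the controls. The labels name the libraries of a genotype as biological replicates, but nothing states how many animals each holds, so the p-values measure the spread between these libraries.

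piRNAs are small RNAs of the germ line that guide PIWI proteins to transposon transcripts and, in meiotic and later cells, to other RNAs. Their precursors are unwound, cut, trimmed and methylated at mitochondria and in germ granules, which are cytoplasmic bodies built from Tudor domain proteins, RNA helicases and PIWI proteins (the intermitochondrial cement of spermatocytes and the chromatoid body of round spermatids). In fetal germ cells nuclear members of the pathway direct DNA methylation to transposons, and in the adult testis a second, abundant class of piRNAs is made from the pachytene stage on.

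The 4 libraries held 51797891 to 75611263 UMIs each. Between 8298 and 10035 barcodes per library were kept as nuclei, with medians of 3300 to 4157 UMIs. Any 2 libraries shared 19 to 29 barcodes among their kept nuclei. A nucleus was given to 1 of 10 gates when the markers of that class stood above those of every other class. None of the 32 genes was among the markers. The nuclei placed in a gate made up WT shares of 42.1 and 38.7% and Dhx37-/- shares of 58.8 and 54.7%. Both Dhx37-/- shares were thus above both WT shares, and the part of this gap in the genotype comparisons was not tested. Of the 4 germ cell gates that were compared, early meiotic prophase held 141 to 590 nuclei per library, pachytene and later spermatocytes 182 to 310, round spermatids 590 to 1224 and elongating spermatids 1945 to 2637. Between 11 of 17 (round spermatid) and 16 of 16 (elongating spermatid) markers of these 4 lists had their highest level in their own gate. *Dhx37* itself gave WT counts of 4 and 3 UMIs and Dhx37-/- counts of 14 and 18 UMIs in the Sertoli gate. The gate held 566499 and 140732 UMIs of all genes in WT and 1268643 and 2196776 in Dhx37-/-, so the raw counts are not levels. A count of 3′ tags cannot show the loss of an inner exon, so these counts do not check the labels. Levels are given as CPM, the UMIs of a gene in a gate and library scaled to a fixed total of UMIs. They are not per length, so a gene is compared between gates and not with another gene.

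The 32 genes together had WT sums of 4966 and 3998 CPM and Dhx37-/- sums of 5947 and 6978 CPM in early meiotic prophase. In the pachytene gate the WT sums were 5014 and 4399.8 CPM and the Dhx37-/- sums 5113 and 5311 CPM. Each WT library was thus higher in the pachytene gate, and each Dhx37-/- library in early meiotic prophase. The sum of the 32 genes was lower in round spermatids, at 3213 to 3471 CPM, and lower again in elongating spermatids, at 1872 to 2213 CPM. The 5 somatic gates held between 619 and 2221 CPM. By mean level, 15 members were highest in early meiotic prophase, 12 in pachytene and later spermatocytes, 3 in round spermatids and 2 in elongating spermatids. These means pool both genotypes, so a peak can rest on the levels of 1 genotype. Among 19958 genes that reached 5 CPM in a germ cell gate, these 4 peaks took 24%, 28.7%, 21.7% and 25.6%. The members were counted without that floor, and *Piwil4*, 1 of the 15, did not reach it, with a mean of 2.05 CPM. The count for round spermatids depended on the scale, since 5 members had their peak there after TMM scaling (a scaling that equalises the bulk of the genes between samples) or by the share of nuclei with a UMI.

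**Figure D1:**
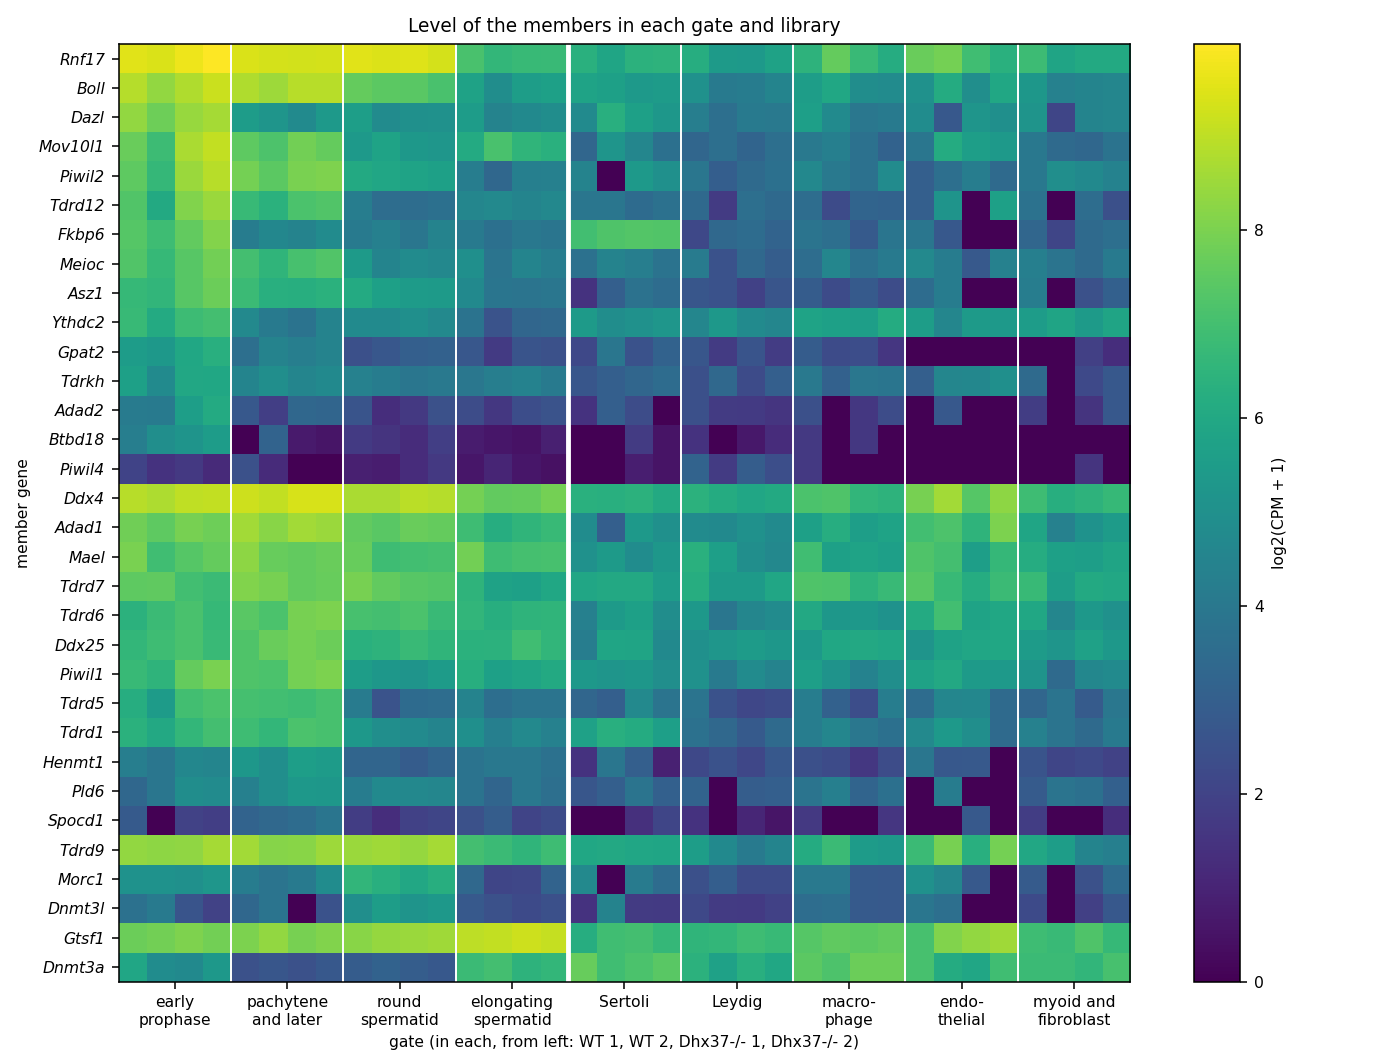
Level of each member, as log2(CPM + 1), in the 4 compared germ cell gates and the 5 somatic gates, with 1 column per library and genes ordered by the germ cell gate of their highest mean level. Among the 4 germ cell gates the upper 15 rows have their highest mean in early meiotic prophase, and *Fkbp6* and *Dnmt3a* stay bright in the Sertoli gate.

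Among the granule helicases and Tudor proteins, *Rnf17*, a Tudor and RING domain protein, had WT levels of 729 and 688 CPM and Dhx37-/- levels of 851 and 1006 CPM in early meiotic prophase. It stayed at WT levels of 676 and 636 CPM and Dhx37-/- levels of 635 and 644 CPM in the pachytene gate and at WT levels of 745 and 702 CPM and Dhx37-/- levels of 710.2 and 649 CPM in round spermatids. A UMI of *Rnf17* was found in 49.5 to 62.4% of early meiotic prophase nuclei thinned to 1000 UMIs (81.5 to 94.6% unthinned) and in 2.44 to 5.77% of Leydig nuclei (14.8 to 23.9% unthinned), at median depths of 2973.5 to 4728.5 and of 4597 to 6421 UMIs. Other somatic gates had higher thinned shares, up to 14.9 to 18.2% in endothelial nuclei. The early meiotic share stood above that of each somatic gate in every library. The part of free RNA in these shares was not tested. *Ddx4*, the VASA helicase that marks germ cells, had WT levels of 476 and 431 CPM and Dhx37-/- levels of 518 and 531 CPM in early meiotic prophase and WT levels of 599.7 and 528 CPM and Dhx37-/- levels of 653 and 669 CPM in the pachytene gate, and then 416 to 485 CPM and 192 to 236 CPM in the spermatid gates. *Tdrd9*, a Tudor protein with a helicase domain, had its highest mean in round spermatids, with WT levels of 353 and 376 CPM and Dhx37-/- levels of 339 and 396 CPM, and this overlapped its 313 to 397 CPM of early meiotic prophase. *Boll*, an RNA-binding protein of the DAZ family, fell from 331 to 577 CPM and 362 to 483 CPM in the meiotic gates to 28.7 to 52 CPM in elongating spermatids.

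*Gtsf1*, a small zinc finger protein that helps PIWI proteins to cut their targets, followed the opposite course. Its level was 213 to 263 CPM in early meiotic prophase, 297 to 376 CPM in round spermatids and 503 to 592 CPM in elongating spermatids, and the last 2 ranges did not overlap. In droplets without a nucleus *Gtsf1* had 523 to 1076 CPM, and its somatic gates held 74.1 to 125 CPM (Sertoli) to 134 to 379 CPM (endothelial). *Mael*, a granule protein needed for transposon silencing, had means of 228 CPM in the pachytene gate and 143 CPM in round spermatids, and in elongating spermatids it had WT levels of 229.8 and 117 CPM and Dhx37-/- levels of 128 and 132 CPM. WT replicate 1 stood above the other 3 libraries for *Mael* in all 4 gates. The free RNA of *Mael* was highest in that library too, with WT levels of 399 and 304 CPM and Dhx37-/- levels of 275 and 285 CPM. Its part in the levels of the gates was not tested.

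Neighbouring gates were compared in 1 edgeR fit with the library as a block, and a gene was called at a Benjamini-Hochberg adjusted p under 0.05 and a difference of at least 2-fold. The fit scales by TMM, with factors of 1.10 to 1.39 in early meiotic prophase, 1.12 to 1.30 in the pachytene gate, 0.833 to 0.904 in round spermatids and 0.723 to 0.803 in elongating spermatids. A fitted difference across the step to round spermatids therefore lies above the one that plain CPM gives, and the median over all genes moved from -0.36 with plain library sizes to 0.08 on the log2 scale.

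From early meiotic prophase to the pachytene gate, 8 of 31 tested members fell and 2 rose. Over all 20508 genes tested, 15.9% fell and 12.6% rose, and the median log2 difference was -0.13 for the members and -0.01 for all genes. With the WT libraries alone these medians were 0.06 and 0.03, so the negative median of the members was not seen in WT.  *Dazl*, an RNA-binding protein that germ cells need to enter meiosis, had WT levels of 329 and 215 CPM and Dhx37-/- levels of 343 and 393 CPM in early meiotic prophase and 26.7 to 44.5 CPM in the pachytene gate. The groups did not overlap, and the log2 difference was -3.07 (SE 0.22, adjusted p = 1e-08). *Fkbp6*, a co-chaperone needed for loading PIWI proteins, had WT levels of 161 and 117 CPM and Dhx37-/- levels of 189 and 281 CPM before and 17.1 to 27.2 CPM after, a log2 difference of -3.00 (SE 0.26, adjusted p = 7.3e-08). *Btbd18*, a nuclear factor for transcription of pachytene piRNA precursors, gave WT counts of 12 and 17 UMIs and Dhx37-/- counts of 49 and 139 UMIs in early meiotic prophase and WT counts of 0 and 6 UMIs and Dhx37-/- counts of 1 and 1 UMIs in the pachytene gate. Its log2 difference of -4.33 (SE 0.56, adjusted p = 8.2e-06) therefore rests on 8 UMIs in the later gate. *Dnmt3a*, a de novo DNA methyltransferase, *Ythdc2*, an RNA helicase of meiotic entry, *Adad2*, a germ granule protein, *Gpat2*, a mitochondrial protein of the pathway, and *Tdrkh*, the Tudor protein that tethers PIWI proteins to mitochondria, were the other 5 that fell, by 2.78, 2.44, 2.42, 1.58 and 1.02 on the log2 scale. *Meioc*, the partner of *Ythdc2*, was not called, at -0.31 (SE 0.23, adjusted p = 0.32).

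The 2 members that rose were *Henmt1*, which methylates the 3′ ends of piRNAs, and *Spocd1*, a nuclear partner of the PIWI protein *Piwil4*. *Henmt1* had WT levels of 18 and 14 CPM and Dhx37-/- levels of 23.6 and 22.2 CPM in early meiotic prophase and WT levels of 37.6 and 29.1 CPM and Dhx37-/- levels of 46.9 and 43.8 CPM in the pachytene gate, a log2 difference of 1.03 (SE 0.26, adjusted p = 0.0043). *Spocd1* gave WT counts of 4 and 0 UMIs and Dhx37-/- counts of 4 and 8 UMIs in the earlier gate and WT counts of 7 and 7 UMIs and Dhx37-/- counts of 16 and 29 UMIs in the later one, a log2 difference of 1.96 (SE 0.51, adjusted p = 0.0045). With plain library sizes *Henmt1* came to 0.98 and was under 2-fold. Of the 10 calls, 5 were made under each of 15 alternative settings (*Btbd18*, *Dazl*, *Dnmt3a*, *Fkbp6* and *Ythdc2*), and with the WT libraries alone 6 members were called, beside 12.6% of all genes.

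**Figure D2:**
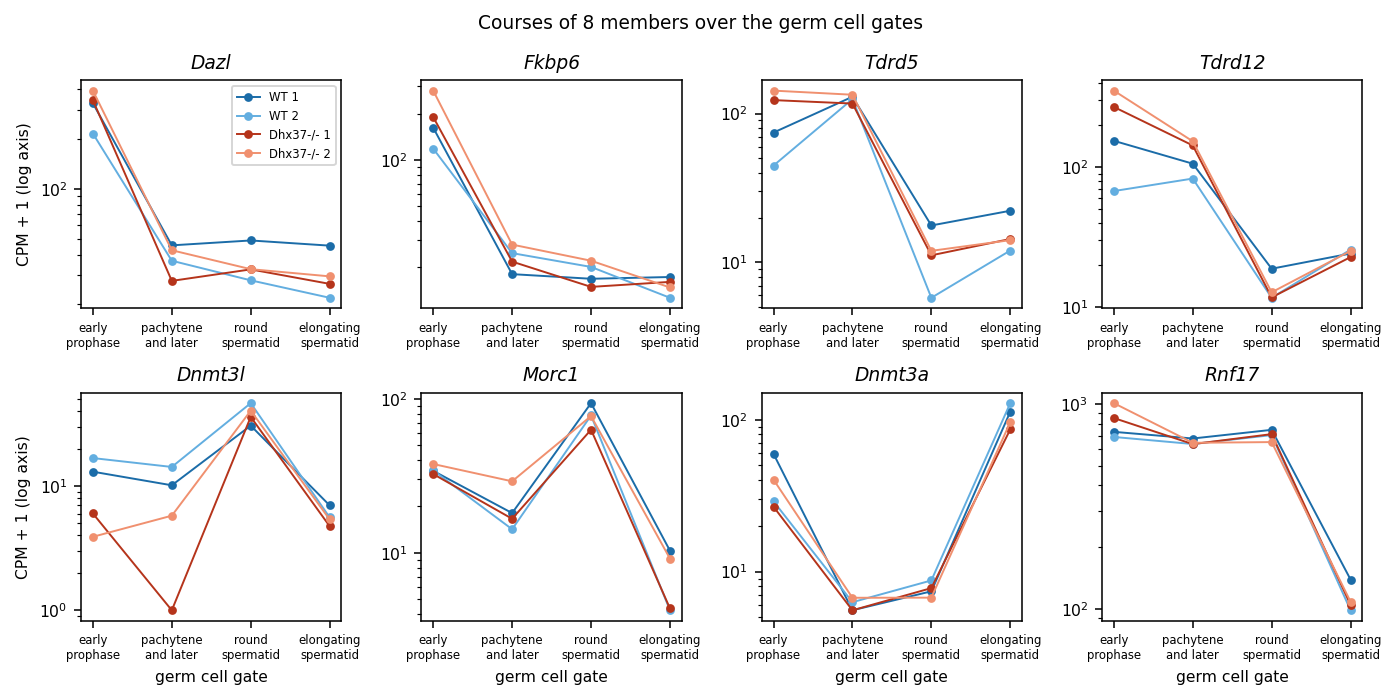
CPM + 1 on a log axis over the 4 compared germ cell gates for 8 members, with 1 line per library. *Dazl* and *Fkbp6* are high in early meiotic prophase only among these gates, *Tdrd5* and *Tdrd12* drop at the step to round spermatids, *Dnmt3l* and *Morc1* peak in round spermatids, and *Dnmt3a* is highest in elongating spermatids.

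From the pachytene gate to round spermatids, 10 members fell and 3 rose, where 24.9% of all genes fell and 29.5% rose. The median log2 difference was -0.23 for the members and 0.08 for all genes. With plain library sizes 12 members fell and 2 rose, and over all genes 33.6% fell and 22.9% rose. The 10 included PIWI proteins, helicases, Tudor proteins and enzymes. *Tdrd5*, a Tudor protein of the chromatoid body and of piRNA precursor processing, went from WT levels of 129 and 124 CPM and Dhx37-/- levels of 116 and 133 CPM to WT levels of 16.7 and 4.79 CPM and Dhx37-/- levels of 10.2 and 11 CPM, a log2 difference of -3.17 (SE 0.31, adjusted p = 6.7e-08). *Tdrd12* went from 81.9 to 152 CPM to 10.7 to 17.8 CPM, a log2 difference of -2.77 (SE 0.36, adjusted p = 1.7e-06), and *Henmt1* from 29.1 to 46.9 CPM to 6.58 to 8.64 CPM, a log2 difference of -1.88 (SE 0.26, adjusted p = 3.4e-06). In each of the 3 the groups did not overlap.

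The PIWI proteins *Piwil1* (MIWI) and *Piwil2* (MILI) fell at the same step. *Piwil1* went from WT levels of 150.5 and 141 CPM and Dhx37-/- levels of 238 and 254 CPM to WT levels of 45.4 and 37.6 CPM and Dhx37-/- levels of 34.9 and 42.9 CPM, a log2 difference of -1.80 (SE 0.27, adjusted p = 7.4e-06), and *Piwil2* from 177 to 265 CPM to 49.9 to 65.2 CPM, a log2 difference of -1.51 (SE 0.30, adjusted p = 0.00017). *Mov10l1*, the helicase that hands piRNA precursors to the nuclease, and *Tdrd1*, a Tudor scaffold of the intermitochondrial cement, fell by 1.69 and 1.63 on the log2 scale. *Meioc*, *Spocd1* and *Gpat2* fell by 1.71, 1.59 and 1.09. Of the 13 calls at this step 10 were made under each of the 15 settings, and those of *Gpat2*, *Spocd1* and *Ythdc2* were lost under some.

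The 3 that rose were *Dnmt3l*, the cofactor of de novo methylation, *Morc1*, a nuclear factor of transposon silencing, and *Ythdc2*. *Dnmt3l* had WT levels of 9.12 and 13.2 CPM and Dhx37-/- levels of 0 and 4.77 CPM in the pachytene gate and WT levels of 29.6 and 45.3 CPM and Dhx37-/- levels of 34.9 and 39.3 CPM in round spermatids, a log2 difference of 3.18 (SE 0.43, adjusted p = 2.5e-06). Its earlier value rests on 28 UMIs over the 4 libraries. *Morc1* had WT levels of 17.1 and 13.2 CPM and Dhx37-/- levels of 15.6 and 28.1 CPM before and WT levels of 92.8 and 77 CPM and Dhx37-/- levels of 62 and 76.3 CPM after, a log2 difference of 2.47 (SE 0.26, adjusted p = 1.2e-07). *Ythdc2* had 13 to 25.1 CPM before and 25.2 to 30.1 CPM after, a log2 difference of 1.02 (SE 0.25, adjusted p = 0.0016), and with plain library sizes this was 0.57 and no longer a call. In the GRCm38 annotation *Dnmt3l* overlaps Aire and *Tdrkh* overlaps *Oaz3* (one of the elongating spermatid markers), each on the other strand. *Dnmt3a* overlaps the antisense gene Dnmt3aos. *Henmt1* overlaps Gm9857, *Btbd18* Gm28635, *Tdrd9* Rd3l and *Adad1* Il2, all protein-coding genes on the other strand. *Piwil4* overlaps the antisense gene Gm10706 and a processed pseudogene on the other strand. *Tdrd12* and *Adad1* overlap processed pseudogenes on their own strand, and further members overlap annotated genes too. Whether the counting used strand is not given in the sources used here.

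From round to elongating spermatids, 10 members fell and 3 rose, against 29.2% and 28.6% of all genes, and the median log2 difference was -0.32 for the members and 0.08 for all genes. *Morc1* and *Dnmt3l*, which had risen at the step before, fell again. *Morc1* reached 3.22 to 9.31 CPM, a log2 difference of -3.60 (SE 0.25, adjusted p = 2.6e-10), and *Dnmt3l* reached 3.75 to 5.97 CPM, a log2 difference of -2.86 (SE 0.35, adjusted p = 4.9e-07). *Rnf17* dropped from 649 to 745 CPM to WT levels of 138 and 97.6 CPM and Dhx37-/- levels of 104 and 107 CPM, a log2 difference of -2.49 (SE 0.18, adjusted p = 4.3e-10). *Boll*, *Piwil2*, *Tdrd9*, *Btbd18*, *Asz1* (a scaffold of the intermitochondrial cement), *Ythdc2* and *Tdrd7* were the other 7, with falls of 1.43 (*Tdrd7*) to 1.83 (*Boll*) on the log2 scale.

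The 3 that rose were *Dnmt3a*, *Mov10l1* and *Tdrd12*. *Dnmt3a* went from WT levels of 6.41 and 7.74 CPM and Dhx37-/- levels of 6.78 and 5.73 CPM to WT levels of 112 and 128 CPM and Dhx37-/- levels of 85.4 and 95.4 CPM, a log2 difference of 4.13 (SE 0.25, adjusted p = 4e-11), and the groups lay far apart. *Mov10l1* went from WT levels of 39.9 and 54.9 CPM and Dhx37-/- levels of 38.5 and 36.4 CPM to WT levels of 67.1 and 137 CPM and Dhx37-/- levels of 92.5 and 79.7 CPM, a log2 difference of 1.33 (SE 0.37, adjusted p = 0.0031), with WT replicate 2 at the top of the later group. *Tdrd12* went from 10.7 to 17.8 CPM to 21.8 to 24.8 CPM, a log2 difference of 1.10 (SE 0.35, adjusted p = 0.0086), which was 0.92 and under 2-fold with plain library sizes. The free RNA of *Dnmt3a* stood at 15.5 to 34.4 CPM and that of *Tdrd12* at 29.2 to 59.9 CPM. Of the 13 calls at this step 11 were made under each of the 15 settings, and those of *Btbd18* and *Tdrd12* were lost under some. *Gtsf1*, whose level was highest in this gate, rose by less than 2-fold, at 0.84 (SE 0.15, adjusted p = 3.7e-05).

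The remaining tested members were called at none of the 3 steps: *Adad1*, an RNA-binding protein of spermatid differentiation, *Ddx25*, a helicase of the chromatoid body, *Ddx4*, *Gtsf1*, *Mael*, *Pld6*, the mitochondrial nuclease of piRNA precursors, and *Tdrd6*, a scaffold of the chromatoid body. Their fitted log2 differences lay between -0.89 (*Ddx4*, from round to elongating spermatids) and 0.97 (*Tdrd6*, from early meiotic prophase to the pachytene gate). With plain library sizes 2 of them passed 2-fold, *Ddx25* at -1.14 from the pachytene gate to round spermatids and *Ddx4* at -1.06 from round to elongating spermatids. Several passed the adjusted p without reaching 2-fold, such as *Tdrd6* at its step into the pachytene gate (adjusted p = 0.00089). *Piwil4* (MIWI2), the nuclear PIWI protein of fetal germ cells, was too low to be tested, with 2, 1, 3 and 4 UMIs in early meiotic prophase.

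Spermatogonia were rare among the gated nuclei, with 4 in each WT library and 5 and 18 in the Dhx37-/- libraries, so the gate was not compared. In these 31 nuclei together, 31 of the 32 members had at least 1 UMI, and *Spocd1* had none of 156012 UMIs, which allows a level of up to 19.23 CPM by the limit of 3 counts and up to 23.6 CPM by the exact Poisson 95% interval. *Rnf17* gave 74 UMIs, or 474 CPM (exact Poisson 95% interval 372 to 595), *Dazl* 73 UMIs, or 468 CPM (exact Poisson 95% interval 367 to 588) and *Tdrd9* 49 UMIs, or 314 CPM (exact Poisson 95% interval 232 to 415). *Fkbp6* gave 48 UMIs, or 308 CPM (exact Poisson 95% interval 227 to 408), 41 of them from Dhx37-/- replicate 2. All 4 UMIs of *Piwil4* came from that library too. Early meiotic prophase markers summed to WT levels of 2028 and 1595 CPM and Dhx37-/- levels of 1965 and 2165 CPM in this gate, and its own markers to WT levels of 2274 and 1246 CPM and Dhx37-/- levels of 1965 and 1712 CPM, and round spermatid markers to WT levels of 3134 and 3141 CPM and Dhx37-/- levels of 1719 and 1409.5 CPM. The largest sum was that of elongating spermatid markers, with WT levels of 5224 and 6132 CPM and Dhx37-/- levels of 8155 and 5004 CPM. Doublet calls fell on 1, 1, 0 and 2 nuclei of the spermatogonia gate in WT replicates 1 and 2 and Dhx37-/- replicates 1 and 2. The levels are therefore those of the gate, and the part of other germ cells in them was not tested. The intervals and limits cover counting error only.

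The promoters of the members were read from the RefSeq table of GRCm38.p6, which holds entries for 25 of the 32 genes, over the 250 bases before each annotated start. The palindrome CACGTG, the core of the E-box that basic helix-loop-helix proteins of the MYC, MAX and MGA network bind, was present on either strand for 11 of the 25 genes (44%), and for 1854 of 27025 genes in the table (6.86%). At the level of single promoters the share was 6.02% of 32851. The 11 were *Boll*, *Ddx4*, *Dnmt3a*, *Dnmt3l*, *Fkbp6*, *Mael*, *Mov10l1*, *Piwil1*, *Pld6*, *Tdrd1* and *Tdrd9*, which differ in their courses, since they include genes that fell into the pachytene gate, genes that fell into round spermatids and genes with a peak in spermatids. The hexamers TAACGG, with its variant TAACTG, as well as CAACGG, and also CAACTG, to which MYB proteins bind, were found for 10 of the 25 genes (40%) against 26.3% of all genes, and GGCGGGA, an E2F-type sequence, for 3 of 25 (12%) against 11.0%. The MYB hexamers cannot overlap CACGTG, and GGCGGGA can share 1 base with it. A gene with several starts has more chances to hold a motif, and a match is a description of letters and not of binding.

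Below are 4 promoters with CACGTG in capitals, chosen after their matches had been seen, as examples of the different courses (*Fkbp6* and *Mov10l1* in early meiotic prophase, *Piwil1* in the pachytene gate, *Tdrd9* in round spermatids). Each is 250 bases long, 5′ to 3′ on the strand of the gene, and ends at the base before the start. The promoter of *Piwil1* lies at chr5:128735996-128736245 (plus strand), that of *Mov10l1* at chr15:88982744-88982993 (plus strand), that of *Tdrd9* at chr12:111971309-111971558 (plus strand) and that of *Fkbp6* at chr5:135350045-135350294 (minus strand). CACGTG begins 179 and 154 bases before the start of *Piwil1*, 246 bases before that of *Mov10l1*, 165 and 95 before that of *Tdrd9*, and 101 and 37 before that of *Fkbp6*.
Piwil1: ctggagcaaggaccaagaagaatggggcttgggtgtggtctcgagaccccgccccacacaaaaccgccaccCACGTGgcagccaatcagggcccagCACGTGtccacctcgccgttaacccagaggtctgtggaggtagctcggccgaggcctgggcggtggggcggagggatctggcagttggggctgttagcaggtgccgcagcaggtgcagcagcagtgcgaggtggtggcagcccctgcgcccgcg
Mov10l1: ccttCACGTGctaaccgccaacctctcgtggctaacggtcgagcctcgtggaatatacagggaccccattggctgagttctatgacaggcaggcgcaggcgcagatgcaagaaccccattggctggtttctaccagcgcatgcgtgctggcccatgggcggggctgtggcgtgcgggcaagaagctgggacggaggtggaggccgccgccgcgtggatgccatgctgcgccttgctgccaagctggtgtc
Tdrd9: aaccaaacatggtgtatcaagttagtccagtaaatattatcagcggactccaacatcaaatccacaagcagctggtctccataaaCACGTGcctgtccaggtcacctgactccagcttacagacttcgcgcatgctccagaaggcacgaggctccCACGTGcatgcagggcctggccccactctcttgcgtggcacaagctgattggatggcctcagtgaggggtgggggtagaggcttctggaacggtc
Fkbp6: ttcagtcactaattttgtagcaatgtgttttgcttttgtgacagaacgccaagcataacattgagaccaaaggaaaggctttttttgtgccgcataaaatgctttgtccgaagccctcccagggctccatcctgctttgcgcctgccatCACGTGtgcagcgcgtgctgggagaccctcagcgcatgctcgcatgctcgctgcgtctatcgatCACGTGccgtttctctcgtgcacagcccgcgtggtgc

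In the somatic gates 5 of 32 members had a gate in which all 4 libraries stood above every other somatic value, which is near the 14.3% of 35488 genes with a UMI in these gates. Sertoli nuclei held 2 of the 5 (4.02% of all genes), Leydig nuclei 1 (1.74%) and endothelial nuclei 2 (3.17%), so the count is no result about the members, and the values are given for each gene. *Fkbp6* was 1 of the 2 in Sertoli nuclei, with WT levels of 124 and 149 CPM and Dhx37-/- levels of 156 and 153 CPM, while the other 4 somatic gates held 0 to 14.1 CPM. This rested on WT counts of 70 and 21 UMIs and Dhx37-/- counts of 198 and 337 UMIs. The Sertoli values lay within the range of early meiotic prophase (117 to 281 CPM) and above the free RNA of *Fkbp6*, at 41.5 to 57.9 CPM. In the Leydig gate *Fkbp6* had 3.52 to 10.5 CPM. A UMI of *Fkbp6* was found in 7.89 to 14.9% of thinned Sertoli nuclei (26.5 to 56.1% unthinned, at median depths of 2748 to 8060 UMIs) and in 0 to 0.676% of thinned Leydig nuclei (1.74 to 5.47% unthinned). Markers of early meiotic prophase summed to WT levels of 334 and 540.0 CPM and Dhx37-/- levels of 390.2 and 320.5 CPM in the Sertoli gate, against WT levels of 4866 and 3995 CPM and Dhx37-/- levels of 5401 and 6108 CPM in their own. The part of free RNA and of other cells in the Sertoli level of *Fkbp6* was not tested.

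*Tdrd1* also stood above every other somatic value in the Sertoli gate, with WT levels of 51.2 and 78.2 CPM and Dhx37-/- levels of 68.6 and 48.7 CPM against at most 40.5 CPM elsewhere. Its free RNA had WT levels of 89.0 and 59.4 CPM and Dhx37-/- levels of 50.9 and 69.2 CPM, so the Sertoli level exceeded that of free RNA in WT replicate 2 and Dhx37-/- replicate 1 only. A UMI of *Tdrd1* was found in 0 to 8.15% of thinned Sertoli nuclei (20.6 to 28.8% unthinned) and in 1.28 to 3.66% of thinned Leydig nuclei (3.54 to 6.12% unthinned), so the thinned ranges overlapped. *Dnmt3a* was found in all somatic gates, from 51 to 84.4 CPM in the Leydig gate to 145 to 210.0 CPM in macrophages, above its free RNA (15.5 to 34.4 CPM) and above its 5.73 to 7.74 CPM in round spermatids. *Ddx4* and *Adad1* were highest among the somatic gates in endothelial nuclei, with 161 to 382 CPM and 89.4 to 259 CPM, in a gate of 26 to 88 nuclei per library. The free RNA of *Ddx4* was at 344 to 485 CPM and that of *Adad1* at 190.3 to 212 CPM, and the endothelial level of *Adad1* exceeded its free RNA in Dhx37-/- replicate 2 only. Round spermatid markers summed to WT levels of 2085 and 3019 CPM and Dhx37-/- levels of 1926 and 3123 CPM in the endothelial gate, against WT levels of 854 and 660.4 CPM and Dhx37-/- levels of 655 and 719.6 CPM in the Leydig gate, and 6 of the 26 endothelial nuclei of Dhx37-/- replicate 2 were marked as doublets. The part of free RNA, other cells and doublets in these values was not tested. *Piwil4* gave WT counts of 9 and 1 UMIs and Dhx37-/- counts of 12 and 9 UMIs in the Leydig gate, and 0 to 2 UMIs per library in every other somatic gate. The Leydig level of *Piwil4* was 2.32 to 7.92 CPM, so its mean was higher there than in the 4 compared germ cell gates, and no test was made between somatic gates.

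**Figure D3:**
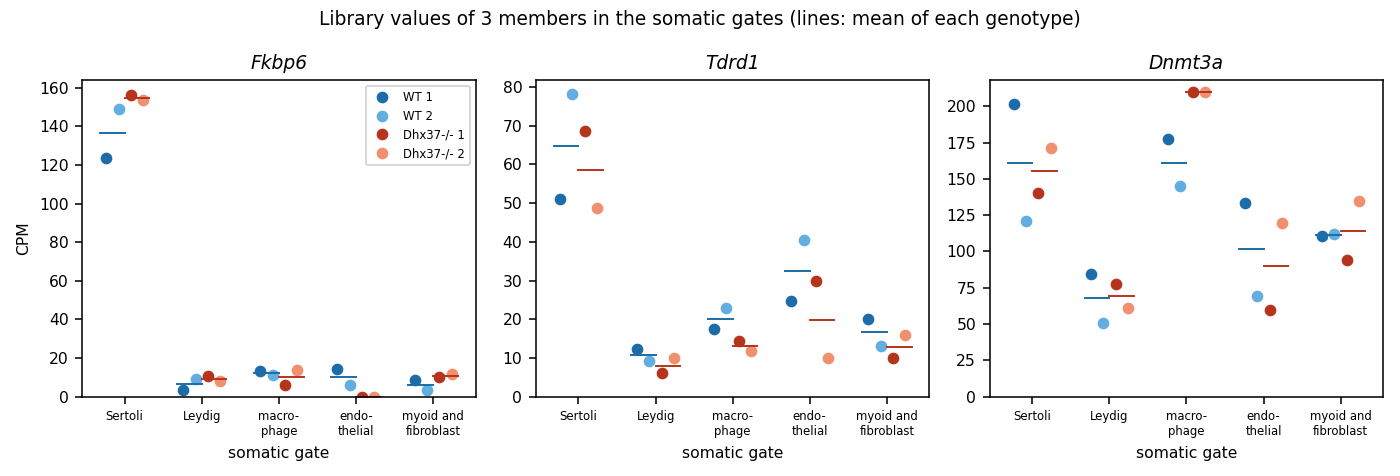
CPM of *Fkbp6*, *Tdrd1* and *Dnmt3a* in the 5 somatic gates, with 1 point per library and a line at the mean of each genotype. *Fkbp6* and *Tdrd1* are highest in the Sertoli gate in all 4 libraries, and *Dnmt3a* is spread over all 5 gates.

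The genotypes were compared within each germ cell gate by edgeR on summed counts, 2 libraries against 2. No member was called in any of the 4 gates at an adjusted p under 0.05. In early meiotic prophase 0% of 13468 genes were called. An unadjusted p under 0.05 was reached by 10 of 30 tested members (8 higher and 2 lower in Dhx37-/-), where 25% of all genes reached it (10.4% higher and 14.6% lower). In the pachytene gate 1.93% of 13186 genes were called. There 4 of 29 tested members (3 higher and 1 lower) had an unadjusted p under 0.05, a smaller share than the 24.6% of all genes (10.8% higher and 13.7% lower). In round spermatids 0.0113% of 17713 genes and in elongating spermatids 0% of 19792 genes were called. None of the 30 members tested in each of these 2 gates had an unadjusted p under 0.05, where 7.9% and 6.64% of all genes did. DESeq2 called 3 members in early meiotic prophase, all higher, where it called 4.78% of all genes and 1.11% as higher. In the other 3 gates it called 0 members, and 3.19%, 0.0734% and 0.0606% of all genes.

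In early meiotic prophase the levels of many members were nonetheless higher in both Dhx37-/- libraries than in both WT libraries. This held for 20 of 30 tested members, where 32% of all genes tested did so, and 2 members (*Dnmt3l* and *Tdrd7*) lay below both, as 26.1% of all genes did. The median log2 difference was 0.46 for the members and 0.03 for all genes. *Piwil2* had WT levels of 182 and 99.8 CPM and Dhx37-/- levels of 353 and 474 CPM, a log2 difference of 1.52 (SE 0.35, adjusted p = 0.089). *Mov10l1* had WT levels of 209 and 112 CPM and Dhx37-/- levels of 418 and 532 CPM, a log2 difference of 1.53 (SE 0.35, adjusted p = 0.089). *Adad2* had WT levels of 16.5 and 15.8 CPM and Dhx37-/- levels of 47.2 and 66.7 CPM, a log2 difference of 1.79 (SE 0.41, adjusted p = 0.089). For all 3 the WT range lay below the Dhx37-/- range, and none passed the adjusted threshold.

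Of the other members with an unadjusted p under 0.05, *Piwil1*, *Tdrd12*, *Tdrd5*, *Asz1* and *Pld6* had log2 differences of 1.17, 1.46, 1.13, 0.94 and 1.24, with adjusted p from 0.094 to 0.17. *Rnf17*, *Dazl*, *Ddx4*, *Tdrd9*, *Gtsf1*, *Adad1*, *Mael* and *Morc1* lay between -0.08 and 0.40. On the other side, *Tdrd7* had WT levels of 179 and 187 CPM and Dhx37-/- levels of 123 and 109.5 CPM. These rested on WT counts of 119 and 107 UMIs and Dhx37-/- counts of 172 and 340 UMIs. Its log2 difference was -0.69 (SE 0.27, adjusted p = 0.17). The free RNA of *Tdrd7* had WT levels of 234 and 152 CPM and Dhx37-/- levels of 93.5 and 118 CPM. The part of free RNA in the difference of *Tdrd7* was not tested. *Dnmt3l* had 8, 9, 7 and 9 UMIs in WT replicates 1 and 2 and Dhx37-/- replicates 1 and 2, or WT levels of 12 and 15.8 CPM and Dhx37-/- levels of 5 and 2.9 CPM, a log2 difference of -1.89 (SE 0.61, adjusted p = 0.13).

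Other values of the early meiotic prophase gate moved with the genotype. Its numbers of nuclei were 200 and 141 for WT and 276 and 590 for Dhx37-/-, and its median depths were 2973.5 and 3607 UMIs for WT and 4574.5 and 4728.5 UMIs for Dhx37-/-. The 21 markers of the gate summed to WT levels of 4866 and 3995 CPM and Dhx37-/- levels of 5401 and 6108 CPM, with 9 of them above both WT libraries in both Dhx37-/- libraries and 5 below. Markers of elongating spermatids in this gate summed to WT levels of 4875 and 4192 CPM and Dhx37-/- levels of 7796 and 6178 CPM, and Sertoli markers to WT levels of 252 and 214 CPM and Dhx37-/- levels of 538 and 401 CPM. Markers of round spermatids went the other way, with WT levels of 3870 and 4472 CPM and Dhx37-/- levels of 3561 and 3423 CPM. The part of these differences in the levels of the members was not tested. With 1 library left out, 1 genotype is a single library that is assumed to vary like the pair of the other, so these fits show only how far a call rests on a library. Without WT replicate 1 edgeR called 6 of 30 members, all higher, beside 13.7% of all genes (4.28% higher). Without WT replicate 2 it called 2, both higher, beside 4.03% of all genes (1.69% higher), and without Dhx37-/- replicate 1 it called 4, all higher, beside 10.6% (2.37% higher). Without Dhx37-/- replicate 2 it called none, beside 0.567% of all genes.

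**Figure D4:**
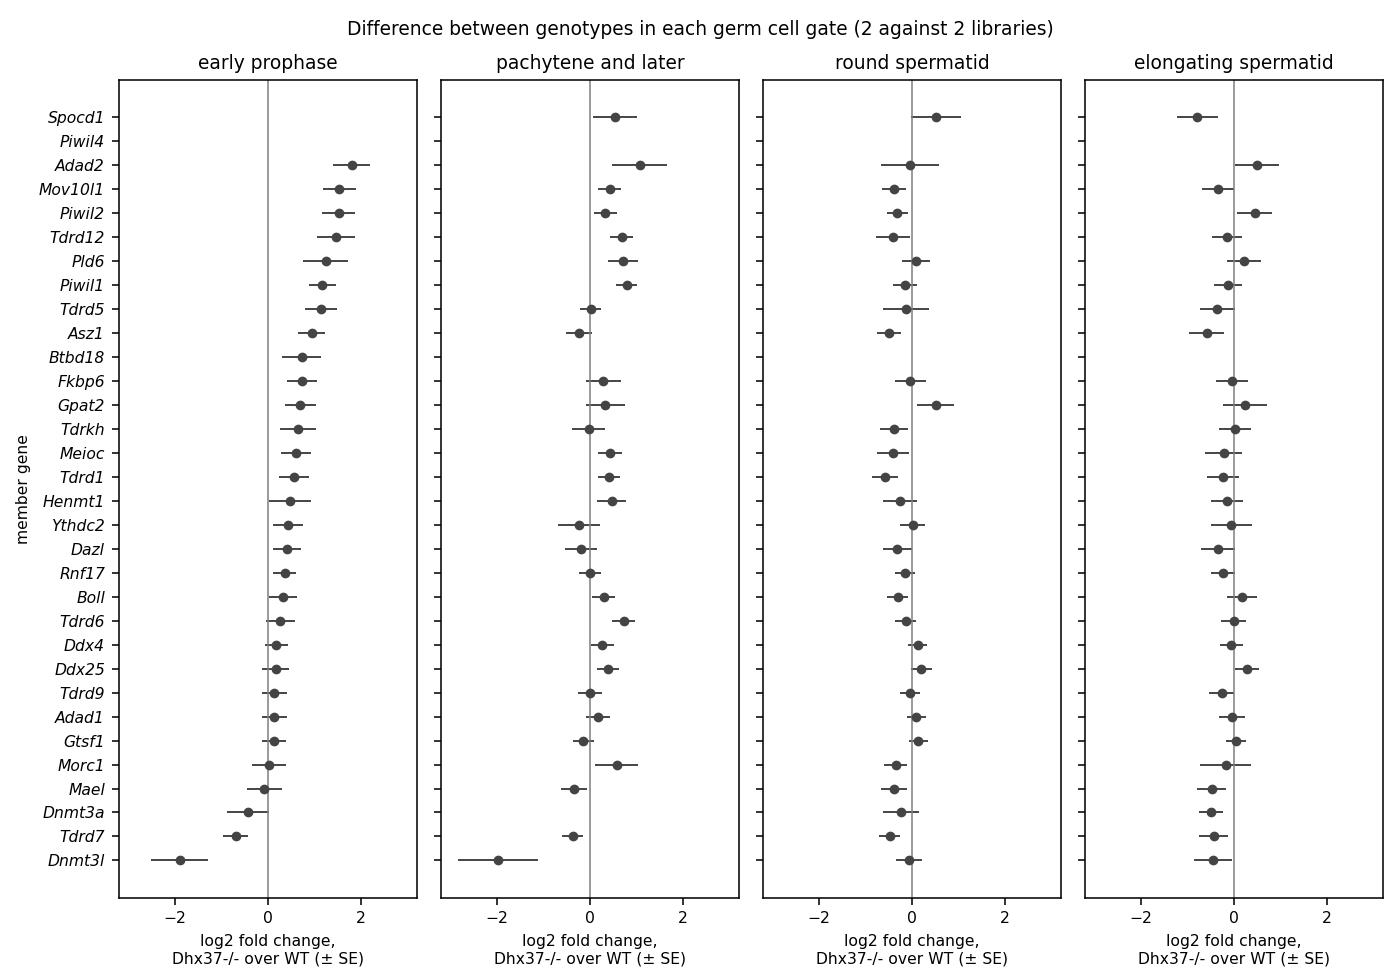
Fitted log2 fold change of Dhx37-/- over WT with its SE for each tested member in the 4 germ cell gates, with genes in the order of early meiotic prophase and no point where a gene was not tested. Most points lie right of 0 in early meiotic prophase, and in each of the spermatid gates 22 of the 30 points lie left of 0. Without WT replicate 1 the median of the members was -0.006 in round and 0.11 in elongating spermatids.

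In the pachytene gate 14 of 29 tested members were above both WT libraries in both Dhx37-/- libraries, where 26.1% of all genes were, and 2 were below, where 29.3% of all genes were. The median log2 difference was 0.30 for the members and -0.03 for all genes. *Piwil1* had WT levels of 150.5 and 141 CPM and Dhx37-/- levels of 238 and 254 CPM, a log2 difference of 0.79 (SE 0.23, adjusted p = 0.09). *Tdrd6* had WT levels of 169.9 and 140.1 CPM and Dhx37-/- levels of 243 and 257 CPM, a log2 difference of 0.72 (SE 0.24, adjusted p = 0.12), and *Tdrd12* had WT levels of 105 and 81.9 CPM and Dhx37-/- levels of 142 and 152 CPM, a log2 difference of 0.68 (SE 0.25, adjusted p = 0.15). In all 3 the 2 libraries of a genotype lay closer to each other than to the other genotype. This gate, too, held more and deeper nuclei in Dhx37-/-, with 206 and 182 for WT and 268 and 310 for Dhx37-/-, at median depths of 3932 and 3809.5 UMIs for WT and 5092 and 6322 UMIs for Dhx37-/-. Its own markers summed to WT levels of 2792 and 2751 CPM and Dhx37-/- levels of 2844 and 2713 CPM, and markers of elongating spermatids to WT levels of 4850.0 and 5004 CPM and Dhx37-/- levels of 7788 and 5915 CPM. The part of these values in the levels of the members was not tested. With the same limit on single libraries as above, edgeR called 8 members higher without WT replicate 1, beside 19.4% of all genes (10.3% higher). Without WT replicate 2 it called 3 members higher and *Mael* lower, 4 of 29, a smaller share than the 19% of all genes.

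In round spermatids 6 of 30 members lay above and 9 below both WT libraries in both Dhx37-/- libraries, against 24.2% and 16.2% of all genes. The median log2 difference was -0.15 for the members and -0.04 for all genes, and 22 of the 30 had a negative value. Most of all genes had a negative value too, since their median was below 0. The median of the members was -0.006 without WT replicate 1 and -0.20 without WT replicate 2, so it rested largely on WT replicate 1. In this gate markers of elongating spermatids summed to WT levels of 4153 and 4295 CPM and Dhx37-/- levels of 7854 and 6689.7 CPM, and its own markers to WT levels of 9933 and 8692 CPM and Dhx37-/- levels of 8459.5 and 8252 CPM, and the part of these values in the levels of the members was not tested. The 3 smallest p belonged to *Tdrd7*, a Tudor protein of the chromatoid body, with WT levels of 245 and 189 CPM and Dhx37-/- levels of 165 and 159 CPM, to *Tdrd1*, with WT levels of 39.3 and 29.5 CPM and Dhx37-/- levels of 26.5 and 21.8 CPM, and to *Asz1*, with WT levels of 67.2 and 49.8 CPM and Dhx37-/- levels of 43.7 and 42.7 CPM. Their log2 differences were -0.48, -0.58 and -0.50, each with an adjusted p of 0.64. For *Tdrd1* and *Asz1*, as for *Tdrd7*, both WT libraries were above both Dhx37-/- libraries. The free RNA of *Tdrd7*, too, had both WT libraries (234 and 152 CPM) above both Dhx37-/- libraries (93.5 and 118 CPM). That of *Tdrd1* and *Asz1* overlapped between genotypes, and the part of free RNA in these differences was not tested. Without WT replicate 2, and with WT then a single library, edgeR called 5 of 32 members lower (*Asz1*, *Mael*, *Meioc*, *Tdrd1* and *Tdrd7*), beside 11.5% of all genes (5.2% lower).

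In elongating spermatids 4 of 30 members lay above and 3 below, against 23.4% and 14.9% of all genes. The median log2 difference was -0.15 for the members and -0.05 for all genes, and 22 of the 30 had a negative value. Most of all genes had a negative value too, since their median was below 0. The median of the members was 0.11 without WT replicate 1 and -0.31 without WT replicate 2, so its sign rested on WT replicate 1. The gate's own markers summed to WT levels of 21461 and 23955 CPM and Dhx37-/- levels of 36127 and 26382 CPM, with 11 of 16 above both WT libraries in both Dhx37-/- libraries, and the part of this in the levels of the members was not tested. *Dnmt3a* had WT levels of 112 and 128 CPM and Dhx37-/- levels of 85.4 and 95.4 CPM, a log2 difference of -0.49 (SE 0.26, adjusted p = 0.75). *Spocd1* gave WT counts of 26 and 40 UMIs and Dhx37-/- counts of 23 and 33 UMIs, a log2 difference of -0.79 (SE 0.44, adjusted p = 0.75). *Mael* had a log2 difference of -0.48 (SE 0.30, adjusted p = 0.75), and this rested on WT replicate 1, since without it the value was 0.031. Leaving out any 1 library gave no call among the members in this gate.

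**Figure D5:**
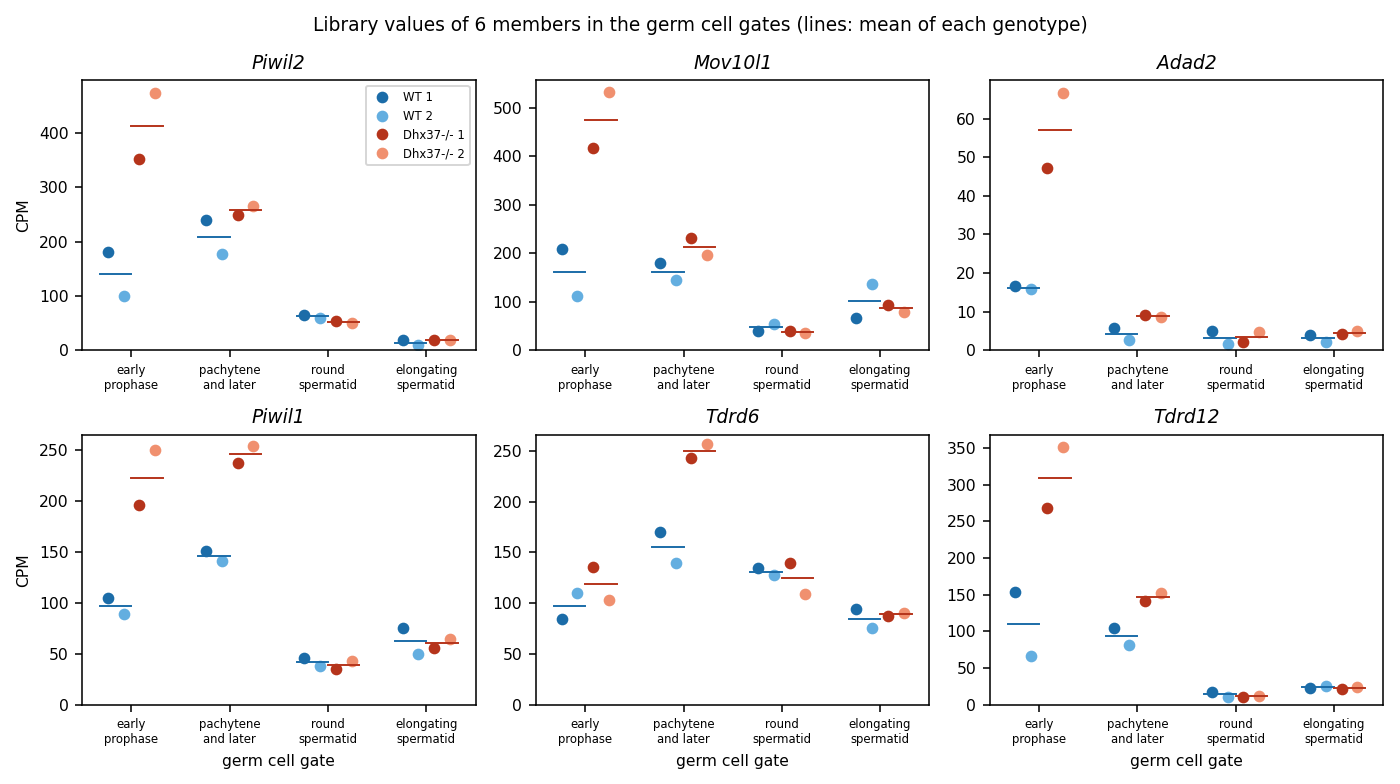
CPM of 6 members in the 4 germ cell gates, with 1 point per library and a line at the mean of each genotype. In early meiotic prophase the Dhx37-/- points of *Piwil2*, *Mov10l1*, *Adad2*, *Piwil1* and *Tdrd12* lie above the WT points. In elongating spermatids the points of *Mov10l1* are spread, with WT replicate 2 highest.

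Whether the genotype difference itself changed between neighbouring gates was tested by an interaction term in edgeR. From early meiotic prophase to the pachytene gate, 1 of 31 members was called, where 0.542% of all genes were. This was *Piwil2*, whose log2 difference between genotypes was smaller in the pachytene gate by 1.35 (SE 0.32, adjusted p = 0.048). In the pachytene gate *Piwil2* had 177 to 265 CPM over the 4 libraries, and the ranges of the genotypes did not overlap there either. The call was lost without WT replicate 2 and without Dhx37-/- replicate 2, and DESeq2 called *Piwil2* and *Asz1*, beside 0.787% of all genes. At the same step 7 of 31 members, all with a negative interaction, and 2687 of 22864 genes had an unadjusted p under 0.05 by edgeR. The median log2 interaction was -0.44 for the members and -0.09 for all genes. From the pachytene gate to round spermatids no member was called by edgeR, where 0.59% of all genes were. An unadjusted p under 0.05 was reached by 8 of 31 members and by 13.4% of all genes. DESeq2 called *Piwil1* and *Tdrd6* there, beside 1.5% of all genes, for which edgeR gave adjusted p of 0.11 and 0.13. From round to elongating spermatids no member was called by either tool, 0% of all genes were called by edgeR, and 1 member had an unadjusted p under 0.05, as did 3.17% of all genes.

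A further list of 26 genes of piRNA biogenesis, germ granules and silencing was followed through the same comparisons. Between genotypes none of its 20 to 25 tested genes was called in any gate, and 6 of 23, 4 of 20, 1 of 20 and 0 of 25 had an unadjusted p under 0.05 in the 4 gates in order of development, beside the shares of all genes given above. From early meiotic prophase to the pachytene gate 3 of 25 rose (*Mybl1*, the MYB factor that drives pachytene piRNA genes, *Dnmt3c* and *Exd1*) and 10 fell, among them *Dnmt3b*, *Dnmt1* and *Tex15*. From the pachytene gate to round spermatids 4 rose and 9 fell, and *Mybl1*, *Dnmt3c* and *Exd1* were among the 9. From round to elongating spermatids 7 rose and 5 fell. The shares of all genes in each direction stand above with the 3 steps.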

How the data were processed

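Nuclei of mouse testis were profiled with 10x Genomics chemistry in 2 WT and 2 Dhx37-/- libraries. The authors deposited, per library, a matrix of raw UMI counts per gene and barcode, and these counts were used as deposited. The file headers name Cell Ranger 7.2.0. The submitters' processing notes list Cell Ranger, Seurat 3.1.1 and the builds GRCm38 and mm10, whereas the study's methods give another Cell Ranger release and a later mouse build, so the build of the counts is not settled. Promoter coordinates and gene overlaps come from GRCm38 annotation and not from the count files. Whether counting used strand or introns is not given in the sources used here.

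Barcodes were kept as nuclei above a UMI cutoff after Cell Ranger, the 99th percentile over the top 8000 barcodes (the expected nuclei) divided by 10. Barcodes below it were kept by a test against the free RNA profile of barcodes ranked 45000 to 90000. The study's limits were then applied, at 500 to 5000 genes, 500 or more UMIs and a mitochondrial share of up to 25%. The upper gene limit removed 13 and 15 nuclei of the WT libraries and 204 and 302 of the Dhx37-/- libraries. Scrublet marked 4.2 to 4.5% of nuclei as doublets, which stayed in except in 1 alternative. Each nucleus was scored by 10 marker lists and entered a gate with a score of at least 2, a lead of at least 1 over the next list and at least 3 markers. The lists were fixed first and the scoring rule was set after the data had been seen. Gates are ranges of a score and not cell types by themselves. A gate was fitted where each library gave at least 20 nuclei.

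UMIs were summed per gate and library and tested in R 4.3.3 by edgeR 4.0.16 (filterByExpr, TMM, quasi-likelihood test, Benjamini-Hochberg adjustment over all genes tested), 2 libraries against 2 for the genotypes, and with the library as a block between neighbouring gates, where 2-fold was also required. DESeq2 1.42.0 was an alternative, beside other scaling, filters, nucleus calling, gates, a replicate block and each library left out. Plain library sizes between gates and a crossed replicate block were added after the data had been seen. The tests were checked on simulated data. For shares of nuclei with a UMI, nuclei were thinned to 1000 UMIs and shallower nuclei were left out (0 in early meiotic prophase, 72 in the Sertoli gate). Whether same-numbered libraries share a litter or day is not given in the sources used here, and they were not treated as pairs in the tests reported.

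The members, the marker lists and the further list of 26 genes were chosen with earlier results of these data known. Genes were named by a rule: the 3 members with the highest CPM in each gate (which is not per length and only chose the names), the 3 with the smallest p between genotypes in a gate, and the 3 largest calls in each direction between gates, with the rest in counts and ranges. Genes named beyond it were chosen after their values were seen.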

Additional observations from a re-analysis of the deposited data

Results flagged for a closer look

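*Piwil2* was flagged because its genotype difference was not the same in neighbouring gates by the interaction test of edgeR. The log2 difference of Dhx37-/- over WT was 1.52 in early meiotic prophase and 0.33 in the pachytene and later spermatocyte gate, and the interaction was -1.35 (SE 0.32, adjusted p = 0.048 over all genes tested). Both Dhx37-/- libraries were above both WT libraries in both gates. The call was lost without WT replicate 2 and without Dhx37-/- replicate 2, and it was kept without WT replicate 1, without Dhx37-/- replicate 1 and by DESeq2. The early meiotic prophase gate also differed between genotypes in its number of nuclei and their depth, and the part of this in the difference was not tested.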

How the results depend on the processing

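Between genotypes 0 members were called in each gate, and the number in early meiotic prophase was 7 with no filter on low counts (among 1791 of 32763 genes called), 3 by DESeq2 (644 of 13468), 2 with no upper limit on genes (308 of 13815) and 1 with a stricter gate (311 of 12251), where the reported fit called 0 genes. In the pachytene gate it was 2 with no filter (1512 of 31782 genes) and 3 of 30 with no upper limit on genes (2337 of 14731), a smaller share than that of all genes. Leaving out 1 library, which leaves a genotype with a single library assumed to vary like the other pair, gave 0 to 6 members in early meiotic prophase, 0 to 8 in the pachytene gate and 0 to 5 in round spermatids. All values above 0 came from leaving out WT replicate 1 (6 and 8 in the first 2 gates), WT replicate 2 (2, 4 and 5 in the 3 gates) or Dhx37-/- replicate 1 (4 in early meiotic prophase). In elongating spermatids each alternative gave 0. The log2 difference of *Mael* there was 0.031 without WT replicate 1 and -0.85 without WT replicate 2.

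With the replicate number as a replicate block, 0 members were called in each of the 4 gates, and 227 genes in early meiotic prophase against 0 without it. Deviations of same-numbered libraries correlated at -0.37 and -0.23 in the meiotic gates and at -0.05 and -0.08 in the spermatid gates. Crossing the numbers was tried after the data had been seen, and the labels give no ground for that pairing. It gave 10 of 30 members in early meiotic prophase, beside 3341 of 13468 genes. In the pachytene gate it gave 3 of 29 members, a smaller share than the 2015 of 13186 genes.

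Between early meiotic prophase and the pachytene gate 6 members were called with the WT libraries alone in place of 10. The interaction test gave 0 to 2 members with 1 library left out at this step, among 1 to 354 genes, and 2 by DESeq2, and 2 by DESeq2 at the step to round spermatids. In the round spermatid gate 5 members had their highest level by TMM-normalized CPM, by thinned and by unthinned shares, in place of 3. These were not the same 5 by each measure. In the elongating spermatid gate it was 1 by unthinned shares in place of 2. The cause of these differences was not tested. Of the recomputed counts of members, 118 stayed on their side of the threshold or within 1.5 times the reported count, 17 rose past it, 3 fell back and 4 moved, and of the values of single genes 131 kept their direction and side of the threshold, 33 newly passed it, 2 no longer passed it and 1 turned its direction.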
